A study of Danio rerio with 3 samples.

Results

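The epithelial epicardium is the outermost layer of tcf21+ cells on the zebrafish ventricle, and these data compare it at 7 days post amputation (7 dpa) with the same layer of uninjured hearts (Ctrl). Cells were taken as epithelial when podxl, cldnc, jam2b, ucmaa and slc29a1b together held at least 5 transcripts and at least 8 of every 10000 transcripts of the cell, when ptprc was at 0 and when myl7 held fewer than 50 per 10000. This rule picked 1200 of the 11722 cells in the 7 dpa and Ctrl libraries. Of them 995 came from the 6624 cells at 7 dpa, and 205 from the 5098 cells at Ctrl. In the whole series 15627 cells passed the filters on detected genes and on mitochondrial counts, which could be at most 5%. The 7 dpa fish were 6 months old, of strain EK, carried tcf21:nucEGFP and had part of the ventricle amputated. The Ctrl fish were uninjured clutchmates of the same age, strain and transgene. A library made at 3 dpa is given beside them where it helps. Live nucEGFP+ cells of the ventricle were sorted by flow cytometry and profiled on the 10x Genomics 3′ platform, with 1 library per condition. The number of fish behind each library is not given in the sources used here. The sort selects for cells in which the tcf21 regulatory sequence drives the reporter, though some leukocyte and cardiomyocyte droplets remained in the libraries.

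The epicardium is a mesothelium that wraps the heart muscle. In the resting adult fish heart it is a quiet sheet held together by keratin filaments and cell junctions. After injury it turns on embryonic genes, divides, covers the wound and deposits matrix such as fibronectin and collagen. Its secreted factors, among them retinoic acid and growth factors, act on muscle and vessels beneath, and some of its cells undergo epithelial-to-mesenchymal transition (EMT) and move inward.

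Levels are given as transcripts of a gene (counted as unique molecular identifiers, UMIs) per 10000 UMIs, summed over the epithelial cells of a library. A ratio divides the 7 dpa level by the Ctrl level, with its 95% interval in brackets. With 1 library per condition there is no replicate check and no test, and the intervals cover counting error only. A gene was called higher when the ratio was at least 2, or lower when it was at most 0.5, with an interval that excluded 1. This was asked of the 3154 genes with a mean level of at least 0.2 per 10000 over both libraries. The epithelial cells held 10985010 UMIs at 7 dpa and 2637535 at Ctrl, with a median of 9852 and 11159 UMIs per cell. The share of all cells that met the rule was 15.02% (14.17 to 15.90) at 7 dpa and 4.021% (3.499 to 4.597) at Ctrl. These shares describe a sort and depend on depth: with every cell thinned to 1800 UMIs they were 4.19% and 0.910%.

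The epithelial label was checked on genes the rule did not use, though markers that the study drew from the same libraries are among them. Of 20 other epithelial epicardium markers all passed the level filter, and their summed level was 589.2 per 10000 at 7 dpa and 484.2 at Ctrl, against 72.7 and 60.4 in the leukocyte droplets of the same libraries. krt15, a keratin, was the most abundant of them at 229 per 10000 at 7 dpa and 164 at Ctrl. The summed level was not compared with mesenchymal epicardial cells. aldh1a2, the enzyme that makes retinoic acid and a classical marker of this layer, held 9.67 and 9.12, against 1.43 and 0.196 in mesenchymal epicardial cells. cdh2, another of the 20, went the other way at Ctrl, at 1.34 in epithelial and 1.497 in mesenchymal cells. At 7 dpa cdh2 was higher in epithelial cells, as the other markers were in both libraries. Among leukocyte markers 9 of 29 were at 0 at 7 dpa and 13 at Ctrl, mpeg1.1 in both, and the summed list held 0.859 at 7 dpa and 0.853 at Ctrl. Cardiomyocyte markers summed to 0.435 at 7 dpa and 2.17 at Ctrl over 21 genes, with myh6 at 0 in both. Endothelial markers summed to 0.482 and 3.16 over 23 genes. Most of the excess at Ctrl sat in a few cells. The cells with 3 or more UMIs over 10 endothelial genes numbered 5 at 7 dpa (0.503%) and 7 at Ctrl (3.41%), and podxl is known from endothelium too. Without them the endothelial list summed to 0.204 at 7 dpa and 0.289 at Ctrl, and the cardiomyocyte list to 0.350 and 0.521. Each gene below that these cells carry is named as such.

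The rule genes chose the cells, so their levels are a description. podxl, an apical sialomucin, held 10.2 per 10000 at 7 dpa and 6.08 at Ctrl. ucmaa held 2.86 and 5.24, and slc29a1b, a nucleoside transporter, held 0.858 and 1.36. The tight junction gene cldnc held 2.94 and 2.71, and jam2b, a junctional adhesion molecule, held 1.498 and 1.30. The podxl share of the marker sum was thus larger at 7 dpa. Just inside the threshold, between 8 and 9 marker UMIs per 10000, lay 54 cells at 7 dpa and 16 at Ctrl, and just outside it, between 7 and 8, lay 46 and 14. Other cells within the layer were counted too. 46 cells at 7 dpa (4.62%) and 2 at Ctrl (0.976%) were high in interferon response genes, and 2 and 0 were cycling. In 85 cells at 7 dpa and 20 at Ctrl the mesenchymal genes hapln1a and pdgfra together held at least 2 UMIs. The wider mesenchymal list, which adds dcn, mfap5 and dpt, reached 5 UMIs and 8 per 10000 in 820 epithelial cells at 7 dpa and in 177 at Ctrl. The sum over this list thus does not separate the layers at these limits. hapln1a alone held 0.467 at 7 dpa and 0.406 at Ctrl, against 11.9 and 11.9 in mesenchymal cells, which were chosen in part by it. The 7 dpa and Ctrl libraries shared 13 cell barcodes, none of them on epithelial cells of both.

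Across the 3154 genes, 174 (5.52%) were higher and 132 (4.19%) were lower at 7 dpa, 306 in all (9.70%), around a median log2 ratio of -0.04. These shares over all genes are the background for each count of list members below. Changes of 4-fold or more were seen in 29 higher and 18 lower genes. The balance depends on scaling: with ribosomal and mitochondrial genes left out of the totals 200 were higher and 233 lower, and after thinning 216 and 242. Of the called genes, 115 higher and 86 lower ones stood above both the leukocyte and the cardiomyocyte droplets of the library where they were higher, and the leading genes are taken from these, as the 15 each way whose interval bound lay farthest from 1.

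**Figure D1:**
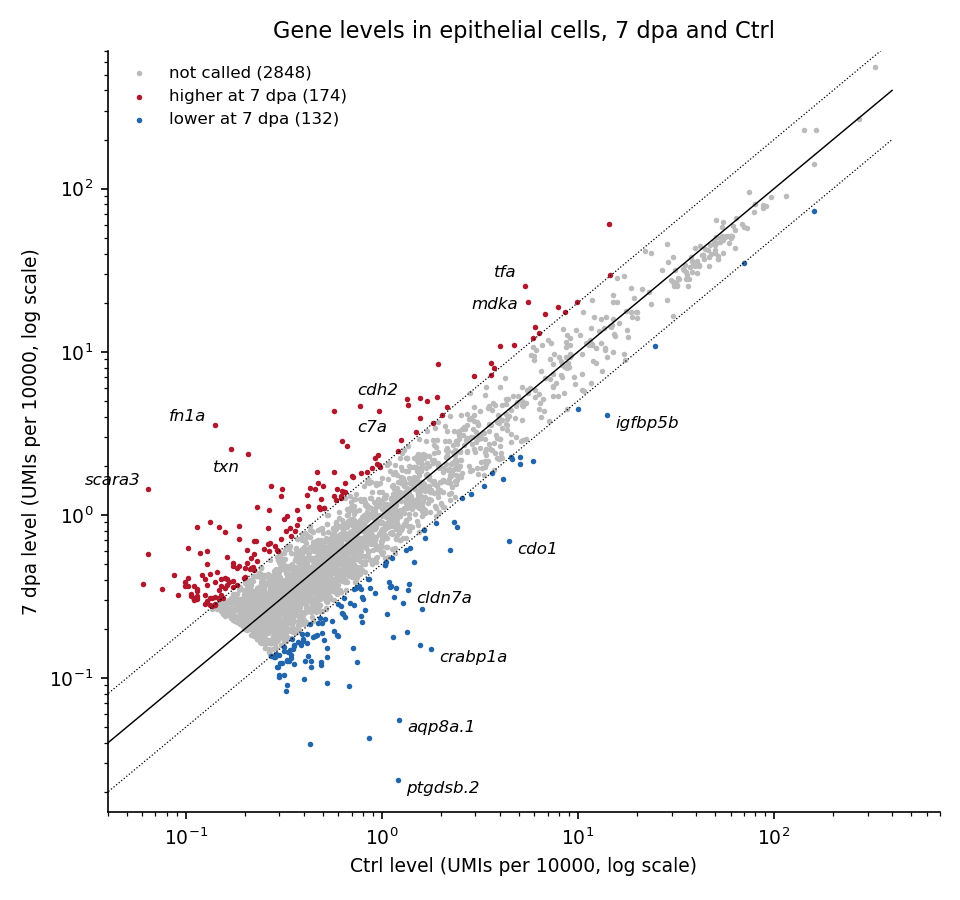
Level of each of 3154 genes in epithelial cells at 7 dpa (y axis) against Ctrl (x axis), both in UMIs per 10000 on log scales. The solid line marks equal levels and the dotted lines 2-fold. Red points are the 174 higher genes and blue points the 132 lower genes. fn1a (3.55 at 7 dpa and 0.140 at Ctrl) lies farthest above the line and ptgdsb.2 (0.0237 and 1.21) farthest below it.

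The fibronectin gene fn1a led the higher genes. It held 3.55 per 10000 (3.44 to 3.66) at 7 dpa and 0.140 (0.0988 to 0.193) at Ctrl, a ratio of 25.3 (18.3 to 36.0). The other fibronectin gene, fn1b, was more abundant and was not called, so fn1a does not stand for fibronectin as a whole. The values of fn1b are given further below. The fn1a ratio was 48.3 without the cells with hapln1a or pdgfra, 40.6 with the marker limits doubled and 39.9 without the cells of highest Scrublet (doublet) score. fn1a was found in 34.1% of 7 dpa cells and 2.93% of Ctrl cells after thinning, beside 11.8% and 4.62% of leukocyte droplets, so that the Ctrl share was at background. scara3, a scavenger receptor family gene, held 1.43 at 7 dpa and 0.0645 at Ctrl (ratio 22.3, 13.9 to 38.3), in 18.1% and 0% of thinned cells and, at full depth, in 51.9% and 6.83%. Its ratio was 53.6 without the cells with hapln1a or pdgfra. Thinned leukocyte droplets, at median depths of 7817.5 UMIs at 7 dpa and 7783 at Ctrl before thinning, held scara3 in 2.52% and 1.54%. Both genes were thus low or near background in the uninjured layer and present in a part of it at 7 dpa. At 3 dpa fn1a stood at 15.6 and scara3 at 2.39, above their 7 dpa levels.

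Other leading higher genes were already present at Ctrl. tfa, encoding transferrin, the iron carrier of plasma, held 25.4 per 10000 at 7 dpa and 5.34 at Ctrl (ratio 4.75, 4.50 to 5.02), and the median cell held 14.6 and 2.58. mdka, a heparin-binding growth factor of the midkine family, held 20.05 and 5.58 (ratio 3.59, 3.41 to 3.79), in 80.6% and 56.6% of thinned cells. cdh2, N-cadherin, held 5.12 and 1.34 (ratio 3.83, 3.44 to 4.27). These genes were higher over most of the cells and not in a small part: the top 5% of 7 dpa cells held 27.2% of the tfa, 27.0% of the mdka and 19.3% of the cdh2 UMIs. At 3 dpa tfa stood at 33.3, cdh2 at 6.01 and mdka at 69.5.

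The remaining leading higher genes were lower in abundance, at 0.580 to 4.34 per 10000 at 7 dpa. The complement gene c7a held 4.34 at 7 dpa and 0.971 at Ctrl (ratio 4.47, 3.94 to 5.09). At 7 dpa cardiomyocyte droplets held 3.81 of it and leukocyte droplets 1.81. mxra8a, a matrix-associated cell surface gene, held 2.85 and 0.629, and adam10a, a sheddase that cuts proteins off the cell surface, 2.65 and 0.667. The growth arrest gene gas1a held 1.45 and 0.311, the heparan sulfate proteoglycan gpc1b 0.845 and 0.148, and myof, which acts in membrane repair, 0.846 and 0.114. sost, a secreted inhibitor of Wnt signalling, held 1.12 and 0.231, with 50.1% of its 7 dpa UMIs in the top 5% of cells. Its ratio was 2.35 with podxl left out of the rule, against 4.84 with it. cyp1c2, a cytochrome P450, had a ratio of 6.81 (4.86 to 9.84) and tuba1a, an alpha tubulin, 4.93 (3.44 to 7.32). txn, thioredoxin, held 2.38 and 0.209 (ratio 11.4, 8.73 to 15.2). The endothelial-gene cells carried much of the Ctrl txn, and without them the ratio was 22.04. In thinned cells txn was found in 19.3% at 7 dpa, close to the 16.8% of leukocyte droplets.

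**Figure D2:**
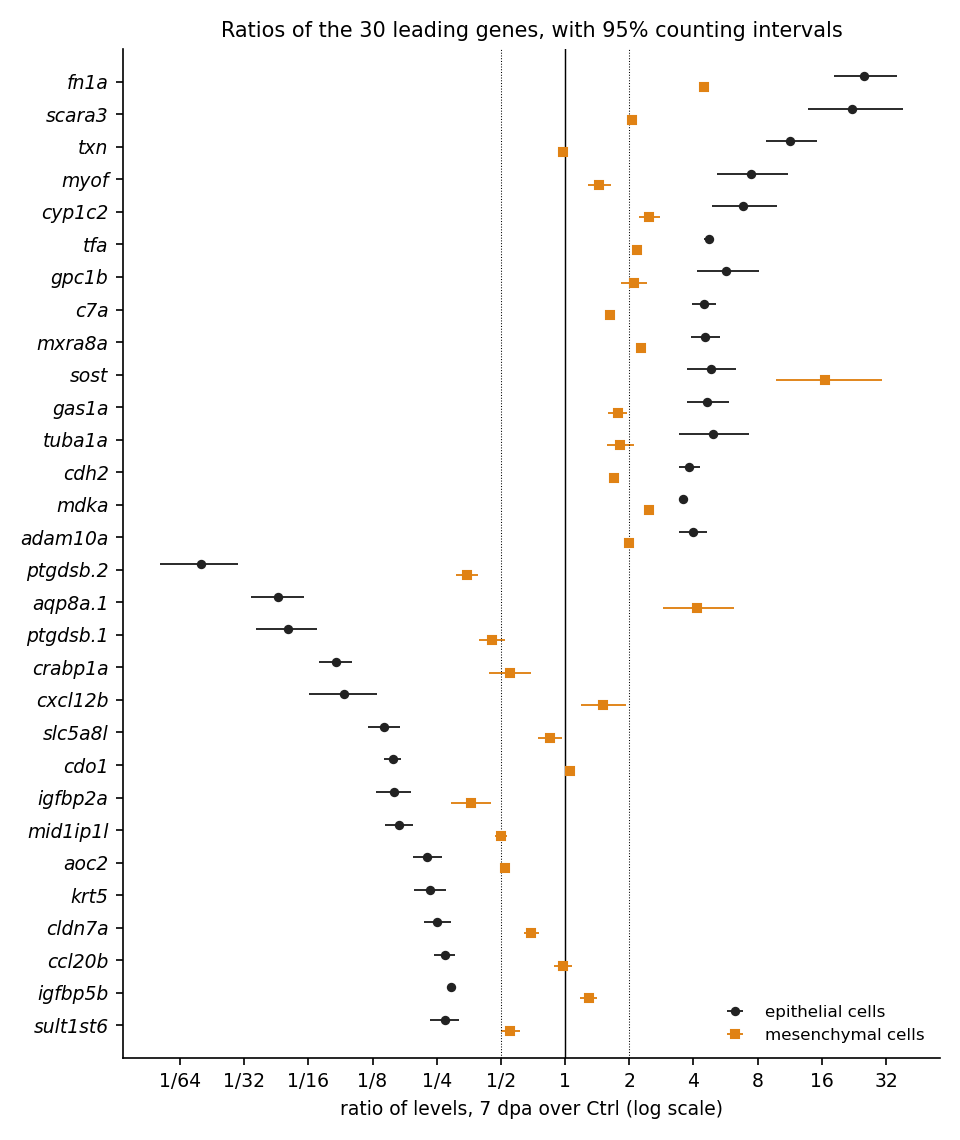
Ratio of the 7 dpa over the Ctrl level (x axis, log scale) for the 15 leading higher and 15 leading lower genes, in epithelial cells (black circles) and in mesenchymal epicardial cells of the same libraries (orange squares). Bars are 95% intervals for counting error only, and dotted lines mark 2-fold. The ratio of fn1a is 25.3 in epithelial and 4.47 in mesenchymal cells. krt5 has no mesenchymal point, since it was at 0 in mesenchymal cells at Ctrl.

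Several of the leading lower genes encode enzymes. ptgdsb.2 and ptgdsb.1, which encode prostaglandin D2 synthases of the lipocalin family, held 0.0237 and 0.0428 per 10000 at 7 dpa, against 1.21 and 0.857 at Ctrl, 50.9-fold and 20.03-fold lower. They are close copies, so how reads split between them is uncertain. ptgdsb.2 was found in 0.605% of thinned cells at 7 dpa and 12.195% at Ctrl, and in no thinned leukocyte droplet. These genes were thus present in a minority of cells at Ctrl and in almost none at 7 dpa. The top 5% of Ctrl cells held 50% of the ptgdsb.2 and 65.5% of the ptgdsb.1 UMIs, so these ratios rest largely on few cells. cdo1, cysteine dioxygenase, was more widespread at Ctrl. It held 0.690 at 7 dpa and 4.44 at Ctrl, 6.44-fold lower, in 8.57% and 40.5% of thinned cells. slc5a8l, a solute carrier, was 7.07-fold lower (0.190 at 7 dpa and 1.35 at Ctrl), the amine oxidase aoc2 4.43-fold (0.288 and 1.27) and the sulfotransferase sult1st6 3.67-fold (0.314 and 1.15). mid1ip1l, a regulator of fatty acid synthesis, was 6.03-fold lower, and at 7 dpa it was found in 4.23% of thinned cells, against 25.2% of leukocyte droplets.

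Epithelial and signalling genes stood among the lower genes as well. cldn7a, a claudin of tight junctions, held 0.344 per 10000 at 7 dpa and 1.36 at Ctrl, 3.97-fold lower. krt5, a keratin of stratified epithelia, was 4.303-fold lower (0.247 and 1.06). The krt5 change rested on few cells: 3.92% of 7 dpa and 8.78% of Ctrl cells held any, and the top 5% of Ctrl cells held 97.1% of its UMIs. ccl20b, a chemokine, was 3.68-fold lower (0.605 and 2.23). aqp8a.1 and cxcl12b met the rule for leading genes through the endothelial-gene cells. aqp8a.1 held 324 UMIs at Ctrl, 2 of them outside these cells, and its ratio without them was 0.948 (0.189 to 9.17). For cxcl12b, 14 of 113 Ctrl UMIs lay outside them, with a ratio of 0.677 (0.361 to 1.35) there. Neither is read as a change of the epithelial layer.

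The carriers of the retinoic acid pathway were lower. Of 10 pathway genes compared, 3 were lower and 0 higher, with a median log2 ratio of -0.57 beside -0.04 for all genes. rbp4, the retinol carrier, was by far the most abundant at 73.1 per 10000 at 7 dpa and 159 at Ctrl (ratio 0.459, 0.454 to 0.465), and at 3 dpa it stood at 14.5. crabp1a, which binds retinoic acid in the cytosol, held 0.150 and 1.79, 11.9-fold lower, in 2.52% and 25.9% of thinned cells and in no thinned leukocyte droplet. The drop in rbp2a, 7.61-fold, came with the endothelial-gene cells, outside which 1 of its 179 Ctrl UMIs lay. The enzymes of the pathway moved less: aldh1a2 had a ratio of 1.06 (1.01 to 1.11), rdh10b of 1.22 and rdh10a of 0.566, none of them called. Thus rbp4 and crabp1a were lower while the synthesizing enzyme stayed near its Ctrl level. With podxl left out of the rule, 1 of 9 pathway genes compared was lower. This was crabp1a (ratio 0.107), so the call of rbp4 depended on podxl in the rule.

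All 3 insulin-like growth factor (IGF) genes that were compared were lower. igfbp5b, a secreted IGF-binding protein, held 4.09 per 10000 at 7 dpa and 14.04 at Ctrl, 3.43-fold lower, and the median cell held 1.65 and 9.73. In mesenchymal cells igfbp5b was scarce, at 0.475 and 0.369. igfbp2a held 0.178 and 1.14, 6.37-fold lower. The ligand igf2b held 1.503 and 3.31 (ratio 0.454, 0.418 to 0.493), and at 7 dpa this was below the 2.09 of leukocyte droplets. With podxl left out of the rule, 2 of the 3 genes were lower, igfbp5b (ratio 0.367) and igfbp2a (0.178), and igf2b was not called. At 3 dpa igfbp5b stood at 2.18, igfbp2a at 0.0716 and igf2b at 0.869, each below its 7 dpa level.

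Midkine paralogs went opposite ways. While mdka was higher, mdkb held 2.15 per 10000 at 7 dpa and 5.90 at Ctrl (ratio 0.365, 0.342 to 0.389), in 26.6% and 57.6% of thinned cells against 10.9% and 13.8% of leukocyte droplets. At 3 dpa mdka stood at 69.5 and mdkb at 0.270. Among 18 secreted growth factors compared, 3 were higher and 4 lower (median log2 ratio -0.14), beside 5.52% and 4.19% over all genes. csf1a, a macrophage growth factor, held 1.93 at 7 dpa and 0.895 at Ctrl, and 0.852 at 3 dpa. efnb2a, an ephrin ligand, held 0.428 and 0.121. The angiogenic factor vegfaa held 0.391 and 1.09, both below the leukocyte droplets (0.857 and 1.56), so it is not read as epithelial expression. nrg2a held 0.128 and 0.330.

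Most of the collagen genes compared were higher. Of 14, 9 were higher and 0 lower, with a median log2 ratio of 1.02, and 8 of the 9 stood above leukocyte and cardiomyocyte droplets. With ribosomal and mitochondrial genes left out of the totals 6 of 15 were higher. With the marker limits doubled, or with podxl left out of the rule, 6 of 14 were. The fibrillar collagen I genes were the most abundant. col1a2 held 29.4 per 10000 at 7 dpa and 14.6 at Ctrl (ratio 2.01, 1.94 to 2.08), col1a1b 20.3 and 9.89, and col1a1a 17.02 and 6.81 (ratio 2.50). The beaded filament collagen VI genes col6a2 (5.23 and 1.57, ratio 3.33), col6a1 (3.94 and 1.56) were higher, as were an entry named col6a3, col5a1, col5a2a and col12a1a. col1a2 and col5a2a lay at the 2-fold limit, and their ratios without the endothelial-gene cells were both 1.98. The basement membrane collagens col4a1 and col4a2, with ratios of 1.15 and 1.18, were not called. In mesenchymal cells col1a2 held 43.9 at 7 dpa and 29.4 at Ctrl and col6a2 7.49 and 5.36, so that the epithelial layer at 7 dpa lay near the uninjured mesenchymal level of each.

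Of 14 basement membrane genes 4 were higher: the laminin chain lama4 (2.48 per 10000 at 7 dpa and 1.202 at Ctrl), the nidogen nid2a (0.304 and 0.114), agrn, encoding agrin (0.325 and 0.152), and the dystroglycan gene dag1 (1.26 and 0.618). nid2a was below leukocyte droplets at 7 dpa (0.351). The matrix glycoprotein sparc, the most abundant, held 35.5 and 28.7 and was not called. Of 16 matrix proteases and inhibitors 5 were higher and 1 lower, beside 5.52% and 4.19% over all genes. Of these only 2 of the higher genes stood above leukocyte and cardiomyocyte droplets. ctsk, cathepsin K, held 1.58 and 0.645. The gelatinase mmp2 held 11.8 and 7.05 and was not called. postnb, a periostin, was picked out after its values were seen and held 14.2 and 6.02 (ratio 2.35, 2.23 to 2.48).

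Of 10 complement genes compared, 5 were higher and 0 lower, with a median log2 ratio of 0.93, and 4 of the 5 stood above leukocyte and cardiomyocyte droplets. With ribosomal and mitochondrial genes left out of the totals 3 were higher. c3a.1 held 4.72 per 10000 at 7 dpa and 1.35 at Ctrl (ratio 3.49, 3.13 to 3.90), against 0.253 and 0.0533 in leukocyte droplets. c4 held 12.23 and 5.89. Its relative c4b lay at the 2-fold limit, and its ratio without the endothelial-gene cells was 1.97. At 3 dpa c3a.1 stood at 1.42, c4 at 2.45 and c4b at 2.41. For these genes the 7 dpa level was the highest of the time course. clu, clusterin, held 4.64 and 0.777, but leukocyte droplets held more at 7 dpa (5.71), and 64.2% of its UMIs lay in the top 5% of cells. cfd, complement factor D, held 6.94 and 6.80.

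Of 12 interferon response genes compared, 4 were higher and 0 lower (median log2 ratio 0.71), and of these only ifi45 stood above leukocyte droplets. It held 1.83 per 10000 at 7 dpa and 0.466 at Ctrl, with 71.6% of its 7 dpa UMIs in the top 5% of cells, and stood at 9.40 at 3 dpa. isg15 held 0.437 and 0.133, stat2 0.412 and 0.159 and irf8 0.327 and 0.106. Without the interferon-high cells 2 genes of the list were called higher.

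**Figure D3:**
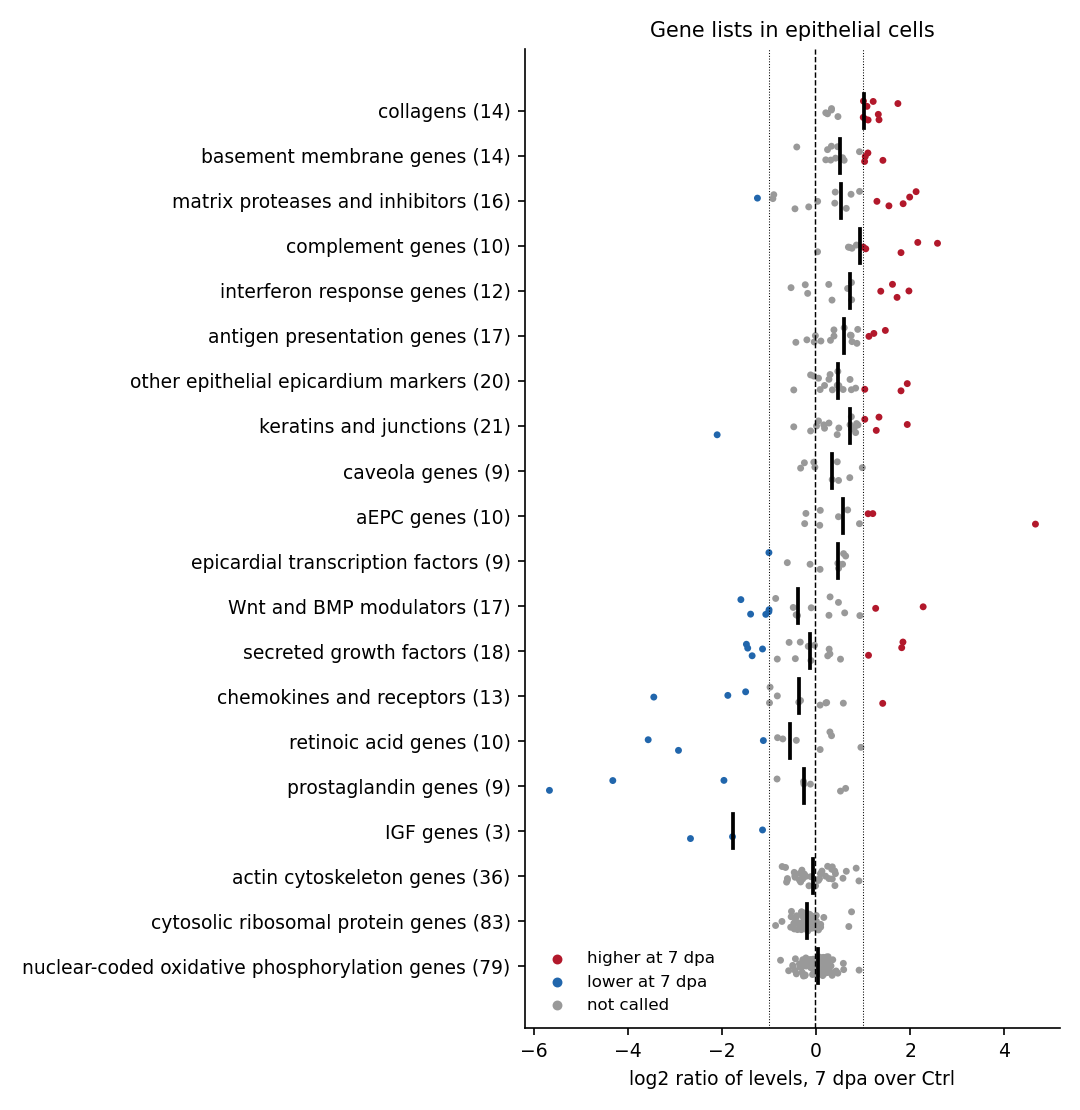
log2 ratio of the 7 dpa over the Ctrl level (x axis) for the compared genes of 20 gene lists (rows, with the number compared). Each point is a gene, red when higher, blue when lower and grey when not called. Black bars are list medians, the dashed line is the median of all genes (-0.04) and the dotted lines mark 2-fold. Collagens (median 1.02) and complement genes (0.93) lie to the right and IGF genes (-1.78) to the left, while ribosomal and oxidative phosphorylation genes hold no called gene.

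The 5 most abundant keratins kept their order of abundance. Of 21 keratin and junction genes compared, 4 were higher and 1, krt5, was lower (median log2 ratio 0.72). krt15 (ratio 1.40), krt4 (1.79) and krt8 (1.13) were above 1 and krt94 (0.921) and krt91 (0.719) below 1, none of them called. eppk1, a linker of intermediate filaments, held 17.5 per 10000 at 7 dpa and 8.54 at Ctrl, and jupa, plakoglobin of adherens junctions, 0.660 and 0.262. krt18b held 7.15 and 2.95, both below the leukocyte droplets (20.5 and 23.4). Caveola genes, which build membrane pits abundant in this layer, held no called gene among 9, with cav1 at 8.56 and 8.86.

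Among 9 epicardial transcription factors 1 was called. tcf21, whose regulatory sequence also drove the sorted reporter, held 34.9 per 10000 at 7 dpa and 70.0 at Ctrl (ratio 0.498, 0.490 to 0.507), close to the 2-fold limit, and the median cell held 30.4 and 65.2. It was found in 96.6% and 97.6% of thinned cells, so nearly all sorted cells held the transcript in both libraries. Because the sort selected cells by a tcf21 reporter, this share cannot show whether other cells of the layer lost it. In mesenchymal cells tcf21 held 75.4 and 85.5. tbx18 (ratio 1.06, 0.949 to 1.18), bnc2 (1.38) and sema3d, a guidance ligand of this layer (1.03, 0.902 to 1.19), were not called. Of 3 EMT factors compared, twist1a, zeb1b and zeb2a, none was called. snai1a fell under the level filter and was not compared. It held 0.0965 at 7 dpa and 0.0986 at Ctrl, against 0.0584 and 0.160 in leukocyte droplets. Neither a change nor its absence is read from these snai1a levels.

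Some genes of the activated epicardial progenitor cells (aEPCs) that the study described at 3 dpa were higher at 7 dpa. This list was drawn from these same libraries and is no independent evidence. Of its 20 genes 10 fell under the level filter and were not compared, ptx3a and col12a1b among them. Over all genes compared, 5.52% were higher and 4.19% lower. Of 10 compared, 3 were higher and 0 lower (median log2 ratio 0.57): fn1a, col12a1a (2.04 per 10000 at 7 dpa and 0.948 at Ctrl, with 5.20 at 3 dpa) and the chaperone hsp90b1 (0.707 and 0.307), which was below leukocyte droplets at 7 dpa (0.721). fn1b, the second fibronectin gene and the more abundant one, held 41.6 at 7 dpa, with a ratio of 1.89 (1.84 to 1.94). hmgb2b (ratio 1.06) and psmb1 (1.05) were near their Ctrl levels. ptx3a had 86 UMIs at 7 dpa and 0 at Ctrl, where 3 counts would make 0.0114 per 10000. Its 7 dpa level of 0.0783 was below that of leukocyte droplets (0.107), and it stood at 0.413 at 3 dpa. col12a1b had 43 UMIs at 7 dpa and 1 at Ctrl, a ratio of 10.3 (1.76 to 417), and its 7 dpa level of 0.0391 was below leukocyte droplets (0.0779).

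Wnt and BMP modulators moved both ways, with 2 of 17 higher and 5 lower (median log2 ratio -0.40). The 2 higher genes and 3 of the 5 lower ones stood above leukocyte and cardiomyocyte droplets. Beside sost, rspo3, a Wnt agonist, held 1.71 per 10000 at 7 dpa and 0.713 at Ctrl (ratio 2.40, 2.07 to 2.81). fstb, a follistatin that binds activins, held 0.369 and 1.12, and the BMP target id2a 2.26 and 4.53. smad7, an inhibitor of the same pathway family, was at the 2-fold limit with a ratio of 0.499, and id2a lay at that limit too. Of 13 chemokine and receptor genes 1 was higher and 3 were lower, beside 5.52% and 4.19% over all genes, and 1 of the 3 was cxcl12b, described above with the endothelial-gene cells. il34, a ligand of the macrophage growth factor receptor, held 0.404 and 0.152, and cxcl14 0.516 and 1.46.

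Within the layer, single cells differed. fn1a was at 0 in 326 of 995 cells at 7 dpa and in 182 of 205 at Ctrl. cdo1 was at 0 in 788 of 995 and in 56 of 205, and mdkb in 421 of 995 and in 18 of 205. tfa and mdka spread over several doublings in both libraries.

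**Figure D4:**
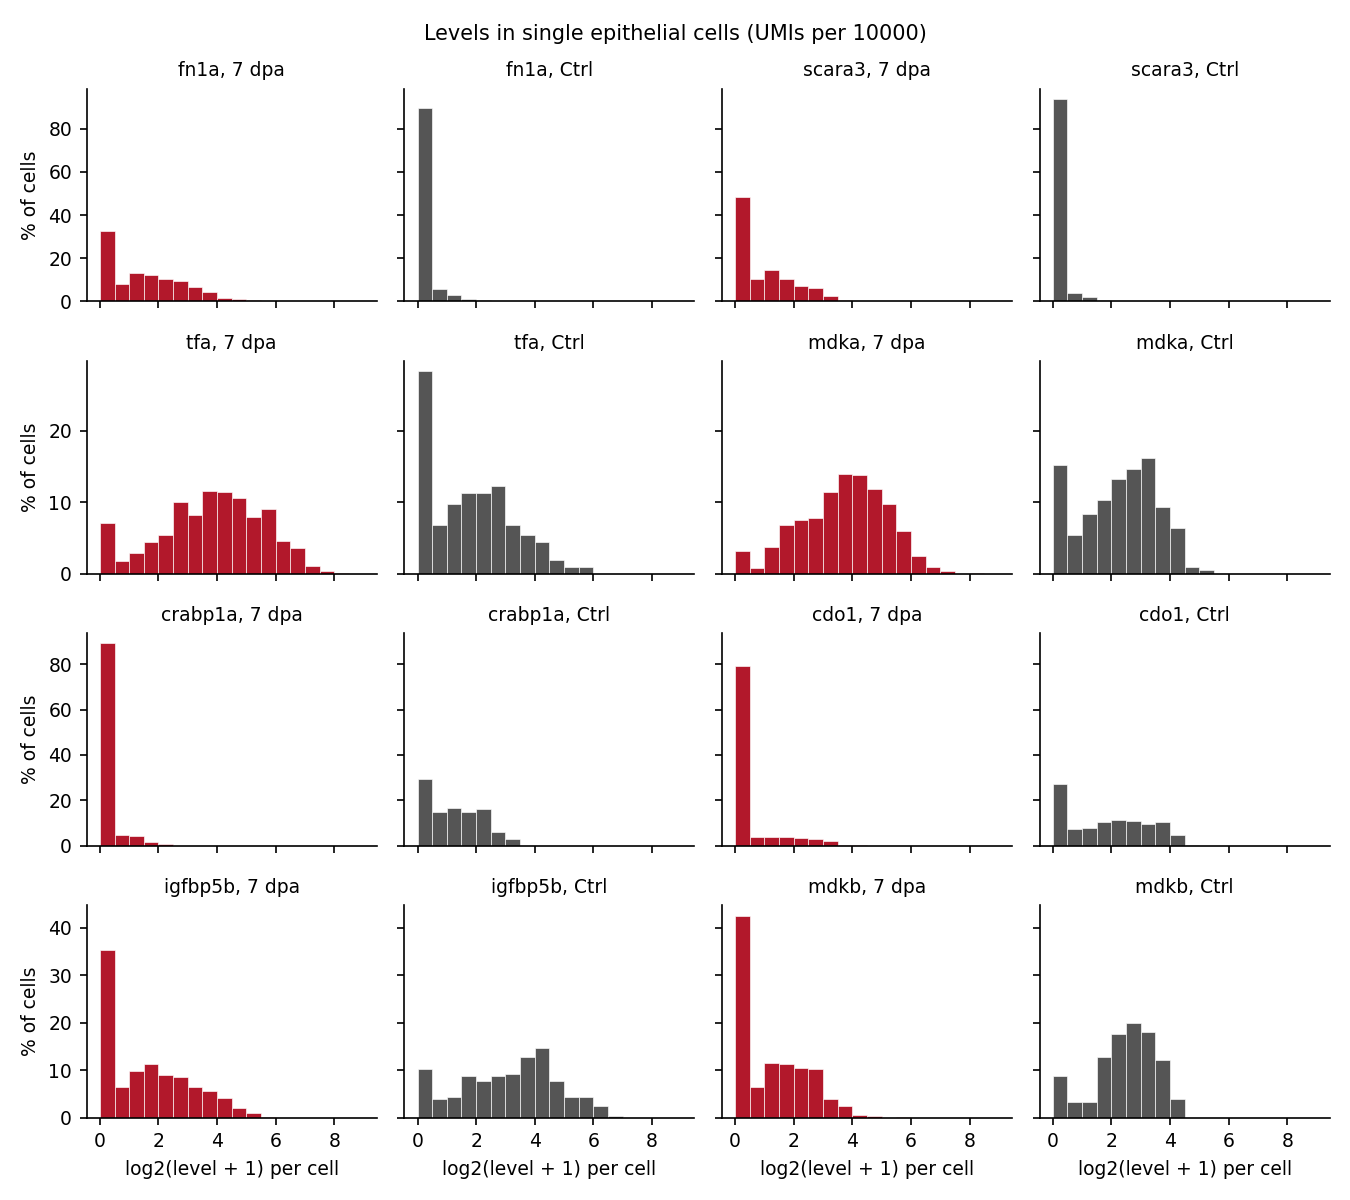
Share of epithelial cells (y axis, % of 995 cells at 7 dpa in red, of 205 at Ctrl in grey) by the level of a gene in the single cell, as log2 of UMIs per 10000 plus 1 (x axis). Each gene has its 7 dpa panel left of its Ctrl panel, and cells at 0 fall in the first bar. fn1a is at 0 in 182 of the 205 Ctrl cells and cdo1 in 788 of the 995 cells at 7 dpa.

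To see whether the higher and the lower genes met in the same cells, each cell was thinned to 1800 UMIs and the leading genes with a UMI were counted, leaving out the endothelial-gene cells, aqp8a.1 and cxcl12b. This view was added after the values were seen, and since the genes were chosen by the contrast, the gap between the libraries is a description. The mean cell held 5 of the 15 higher genes at 7 dpa and 1.74 at Ctrl, and 0.819 of the 13 lower genes at 7 dpa and 3.18 at Ctrl. At 3 dpa the numbers were 6.62 and 0.446. None of the 13 lower genes was seen in 450 of 987 cells at 7 dpa and in 14 of 198 at Ctrl.

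Within the 7 dpa library, cells that held more of the lower genes held less of the higher ones (Spearman rho of -0.35 over 987 cells, which share 1 library). fn1a held 4.51 per 10000 in the 450 cells with none of the lower genes, 3.57 in the 346 with 1, 1.54 in the 129 with 2 and 0.482 in the 62 with 3 or more. tfa followed the same order at 34.1, 22.1, 11.8 and 7.92, and mdka held 24.1 in the cells with none and 8.37 in those with 3 or more. In the 62 cells with 3 or more, scara3 held 0.121 and tcf21 44.6, against 1.95 and 32.5 in the 450 cells with none. The median depth of these groups lay between 9547 and 10685 UMIs. krt15 went the other way, at 216.9 in the 450 cells and 243.1 in the 62. In the Ctrl library rho was -0.07 over 198 cells. There fn1a held 0.357 in the 14 cells with none of the lower genes and 0.119 in the 131 with 3 or more, tfa 6.24 and 5.43, and mdka 4.55 and 5.93. Over all 4 Ctrl groups fn1a did not fall in order, at 0.357, 0.214, 0.0247 and 0.119. scara3 held 0.0446 in the 14 cells and 0.0713 in the 131. These 198 Ctrl cells held 35 fn1a and 16 scara3 UMIs, so no direction is read from either gene. At Ctrl tfa was slightly higher in the cells with none and mdka was lower there.

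**Figure D5:**
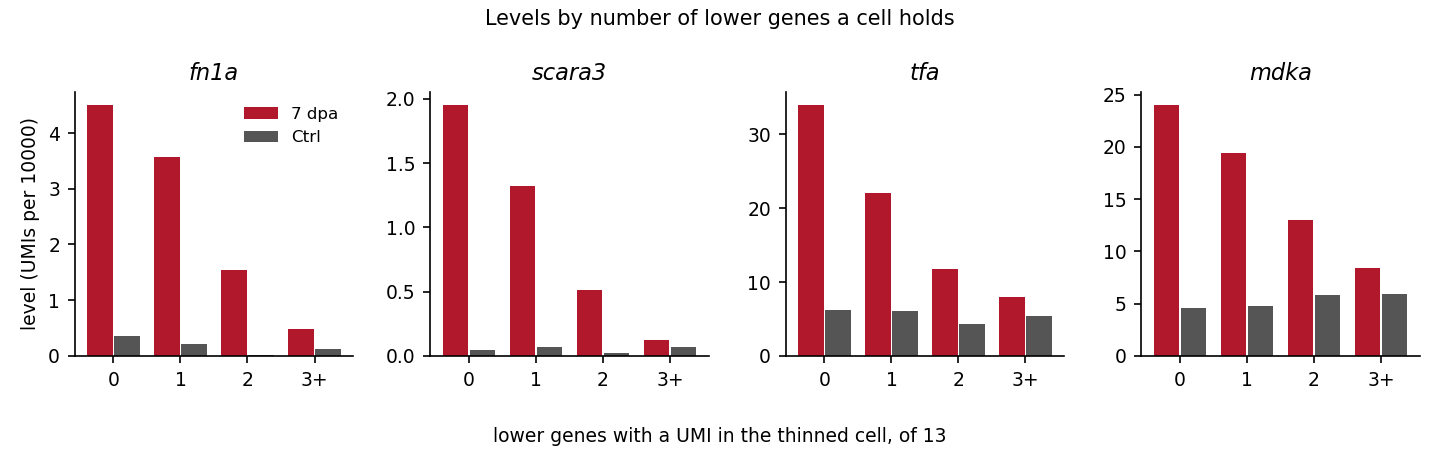
Level of fn1a, scara3, tfa and mdka (y axes, UMIs per 10000) in epithelial cells grouped by how many of the 13 leading lower genes had a UMI after thinning (x axis), at 7 dpa (red) and at Ctrl (grey). At 7 dpa tfa is 34.1 in cells with none of the lower genes and 7.92 in cells with 3 or more, whereas at Ctrl it is 6.24 in cells with none and 5.43 in cells with 3 or more.

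Many leading genes moved the same way in the mesenchymal epicardial cells of the same libraries (5028 at 7 dpa and 4277 at Ctrl). Several of the changes were of another size. Every leading higher gene but txn was also higher in mesenchymal cells, with intervals above 1, among them mdka (ratio 2.47) and tfa (2.17). Of these genes, myof, c7a, gas1a, tuba1a, cdh2 and adam10a had mesenchymal ratios under 2. An interval that excludes 1 is a loose limit, which 1901 of the 3154 genes met in epithelial cells. The share of all genes that met it in mesenchymal cells is not given here. The median log2 ratio there was 0.99 for complement genes and 0.50 for collagens, beside 0.93 and 1.02 in epithelial cells. For the 3 IGF genes it was 0.37, beside -1.78, and this was the value of igfbp5b. igfbp2a was lower in mesenchymal cells too (ratio 0.363, 0.292 to 0.448). In mesenchymal cells fn1a held 4.74 per 10000 at 7 dpa and 1.06 at Ctrl, a ratio of 4.47, and txn 2.13 and 2.17. Of the leading lower genes, ptgdsb.2, ptgdsb.1, crabp1a, slc5a8l, igfbp2a, mid1ip1l, aoc2, cldn7a and sult1st6 were lower there too, with intervals below 1. Their mesenchymal ratios ran from 0.347 for ptgdsb.2 to 0.848 for slc5a8l. Only ptgdsb.2, ptgdsb.1 and igfbp2a had mesenchymal ratios of at most 0.5. Near or above their mesenchymal Ctrl level were cdo1 (1.05 and 0.995), ccl20b (0.315 and 0.321) and igfbp5b (0.475 and 0.369). clu stood far above the epithelial level at 35.7 and 8.53. No replicate library exists to test these differences between layers, so the values are given side by side. Among housekeeping groups in the epithelial cells, none of 83 ribosomal protein genes, 79 oxidative phosphorylation genes or 36 actin cytoskeleton genes was called, with median log2 ratios of -0.19, 0.04 and -0.06.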

How the data were processed

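Reads were aligned by the authors with CellRanger 3.0.2 to GRCz10, and the deposited files hold UMI counts per gene and droplet, as whole numbers without normalization. The 7 dpa and Ctrl libraries held 7002 and 5284 droplets with 45679493 and 26092042 UMIs. Counts were summed over epithelial cells (Python 3.11.15, scipy 1.17.1). Levels carry exact Poisson intervals, ratios exact conditional intervals and shares Clopper-Pearson intervals, at 95%, for counting error only. Leukocyte droplets held at least 2 ptprc UMIs and cardiomyocyte droplets at least 50 myl7 UMIs per 10000. Mesenchymal cells met the same limits on hapln1a, pdgfra, dcn, mfap5 and dpt and lay under 8 per 10000 on the epithelial markers. Thinning to 1800 UMIs left out 3 epithelial cells at 7 dpa and 0 at Ctrl. The automatic threshold of Scrublet (scanpy 1.11.5) marked 1 cell at 7 dpa and 1 at Ctrl, too few to have worked, so no doublet was removed. The members, gene lists and tests were chosen with earlier results of these data known. Named genes were the 15 called genes each way whose interval bound lay farthest from 1 (clone names left out), called or most abundant list members, and genes the study names as markers. On simulated counts for 3154 genes of this comparison, 200 of them changed, 95.0% of intervals held the true ratio. This speaks to counting error only and not to spread between fish or libraries. Nor do the intervals cover UMIs that sit in few cells, as for krt5. The 15 alternatives included 2 added after seeing the data. No sequence or coordinate was used.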

Additional observations from a re-analysis of the deposited data

Results flagged for a closer look

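Among the leading genes, 2 had ratios past 2-fold in opposite directions in epithelial and mesenchymal cells, and the difference between the layers was not tested. aqp8a.1 had a 7 dpa over Ctrl ratio of 0.0452 in epithelial cells and of 4.17 (2.87 to 6.22) in mesenchymal cells, with 203 mesenchymal UMIs at 7 dpa and 33 at Ctrl. The epithelial value came from cells that hold endothelial genes. krt5 had a ratio of 0.232 in epithelial cells and, in mesenchymal cells, 11 UMIs at 7 dpa and 0 at Ctrl.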

How the results depend on the processing

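Of 430 ratios of the 30 leading genes under 15 alternatives, 425 kept direction and side of the limit. aqp8a.1 turned to 5.29 (0.866 to 217) with the marker limits doubled to 10 UMIs and 16 per 10000, and it lost its call without the endothelial-gene cells (0.948) and without podxl in the rule (0.729), as cxcl12b did (0.677 and 0.729). Other called ratios moved by over 1.5 times and kept their call. Thinning gave 33.5 for cyp1c2, 3.77 for myof, 3.72 for gpc1b, 7.37 for sost, 5.94 for txn, 0.143 for cldn7a, 0.0282 for ptgdsb.1 and 0.0329 for ptgdsb.2. Leaving out podxl gave 17.7 for txn, 3.26 for tuba1a, 0.114 for ptgdsb.1 and 0.0343 for ptgdsb.2. Doubled limits gave 0.138 for krt5 and 0.0825 for ptgdsb.1, and txn was 18.5 without interferon-high cells. The ratio of scara3 after thinning has no value, since Ctrl then held 0 UMIs. No called gene was called the other way under any alternative, but some calls were lost. Without podxl in the rule, 112 of 149 higher and 86 of 123 lower genes that were still compared stayed called. That rule picked 420 cells at 7 dpa and 121 at Ctrl, against 995 and 205 with podxl. With doubled limits 135 of 159 higher and 104 of 118 lower genes stayed called. After thinning the counts were 137 of 169 and 104 of 120. Thinning gave 242 lower genes. Leaving ribosomal and mitochondrial genes out of the totals gave 233 lower genes and 3 higher complement genes. A mean level of at least 1 left 57 higher and 23 lower genes, 1 interferon gene and 1 retinoic acid gene. No level filter gave 811 higher and 881 lower genes, 14 higher collagen genes, 14 interferon, 6 retinoic acid, 7 IGF and 7 keratin and junction genes. Interferon genes numbered 2 with doubled marker limits, 2 without interferon-high cells and 2 without podxl in the rule, where 1 retinoic acid gene was lower. The share of epithelial cells was 16.3% at 7 dpa with at least 2000 UMIs. At Ctrl, 3 dpa and 7 dpa it was 1.86%, 6.74% and 7.64% with doubled limits, 0.910%, 3.38% and 4.19% after thinning, and 2.37%, 3.51% and 6.34% without podxl. Why these moved was not tested, beyond fewer genes or cells entering. No paired analysis was possible because each condition has 1 library. Fish, injury, handling and library cannot be told apart, and the 205 Ctrl cells limit genes with few UMIs (as few as 6).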

Other observations

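Further lists are given here, beside 5.52% higher and 4.19% lower over all genes. Heat shock genes had 3 of 15 lower and 0 higher (median log2 ratio -0.30), hsp70.2 at 1.81 per 10000 at 7 dpa and 3.66 at Ctrl and hsp70.1, a near copy, at 0.490 and 1.04. Immediate early genes had 1 of 35 higher (median log2 ratio -0.03), the phosphatase gene dusp2, which was below leukocyte droplets at 7 dpa (1.51 against 9.56). Annexin and S100 genes had 2 of 15 higher. The annexin anxa5b, at the 2-fold limit, held 1.96 per 10000 at 7 dpa and 0.978 at Ctrl, and the S100 partner ahnak 13.1 and 6.33. The following genes were chosen after their values were seen. cdkn1a, an inhibitor of the cell cycle, held 2.90 at 7 dpa and 1.25 at Ctrl, beside 0.698 at 3 dpa. cirbpb, a cold-inducible RNA-binding protein, held 10.9 and 24.7. The clone-named gene CR318588.1 held 60.9 and 14.4, but leukocyte droplets held 98.4 and 52.7.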
